A study of Mus musculus with 6 samples.

Results

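The heat shock and DnaJ chaperone families were taken as every probe whose platform gene symbol begins with Hspa, Hspb, Hspd, Hspe, Hsph, Dnaja, Dnajb or Dnajc and a digit, or with Hsp90a, leaving out Hspa5 and Hsp90b1. This gave 130 of 45281 probes, for 64 of 19057 named genes. They comprised 1 HSP90 gene on 3 probes, 13 genes of the HSP70 and HSP110 family on 28, 8 small heat shock genes on 11, and 2 mitochondrial chaperonin genes on 3. The J proteins comprised 3 DnaJA genes on 8 probes, 12 DnaJB genes on 22 and 25 DnaJC genes on 55. Hsp90ab1, the constitutive cytosolic HSP90 gene, was not matched to a probe and was not analysed here.

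The arrays, Illumina bead arrays, carried endothelial-enriched RNA of C57Bl/6J wild-type mouse carotid artery, from vessels under disturbed flow (3 arrays) or stable flow (3 arrays). Age and the way flow was disturbed are not in the labels. Nor do they tell whether each array is a separate animal, so the p-values cover the spread among these 6 arrays alone, part of which may be technical. All 3 disturbed flow arrays lay on 1 slide and all 3 stable flow arrays on another, so slide and flow cannot be told apart. Arrays were grouped by the sample labels, which name the scanned array. In the deposited series matrix, each of the 6 columns had the rank order of an array labelled with the other group (rank correlation 1), so every sign given here follows the sample labels, would be the opposite one under the matrix columns, and is not settled.

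Molecular chaperones bind unfolded or partly folded proteins and keep them from aggregating. HSP70 proteins hold short hydrophobic stretches in a cycle driven by ATP. J proteins bring clients to HSP70 and start ATP hydrolysis, and HSP110 proteins release the ADP. HSP90 acts later, on signalling clients that in endothelium include the nitric oxide synthase. Small heat shock proteins hold unfolded clients without ATP, and the mitochondrial chaperonin folds imported proteins in a closed chamber. Many of these genes are switched on by the transcription factor HSF1 when proteins unfold.

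The chaperones were detected more often than named genes as a whole on every array. A gene was counted as above background where its brightest probe had a detection p-value under 0.05, a comparison with negative control beads of the same array. On the disturbed flow arrays 45, 37 and 29 of the 64 genes were above background (70.3%, 57.8% and 45.3%), and on the stable flow arrays 39, 15 and 31 were (60.9%, 23.4% and 48.4%). Over all 19057 named genes the shares were 43.0%, 37.8% and 27.6% on the disturbed flow arrays and 41.9%, 14.0% and 31.5% on the stable flow arrays. The chaperone counts of the groups overlapped, and the lowest count, on stable flow replicate 2, fell on the array with the fewest detected genes of any kind. In all, 35 chaperone genes (54.7%) were above background on at least 3 arrays, against 36.1% of named genes, and 11 (17.2%) on all 6, against 8.07%.

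**Figure D1:**
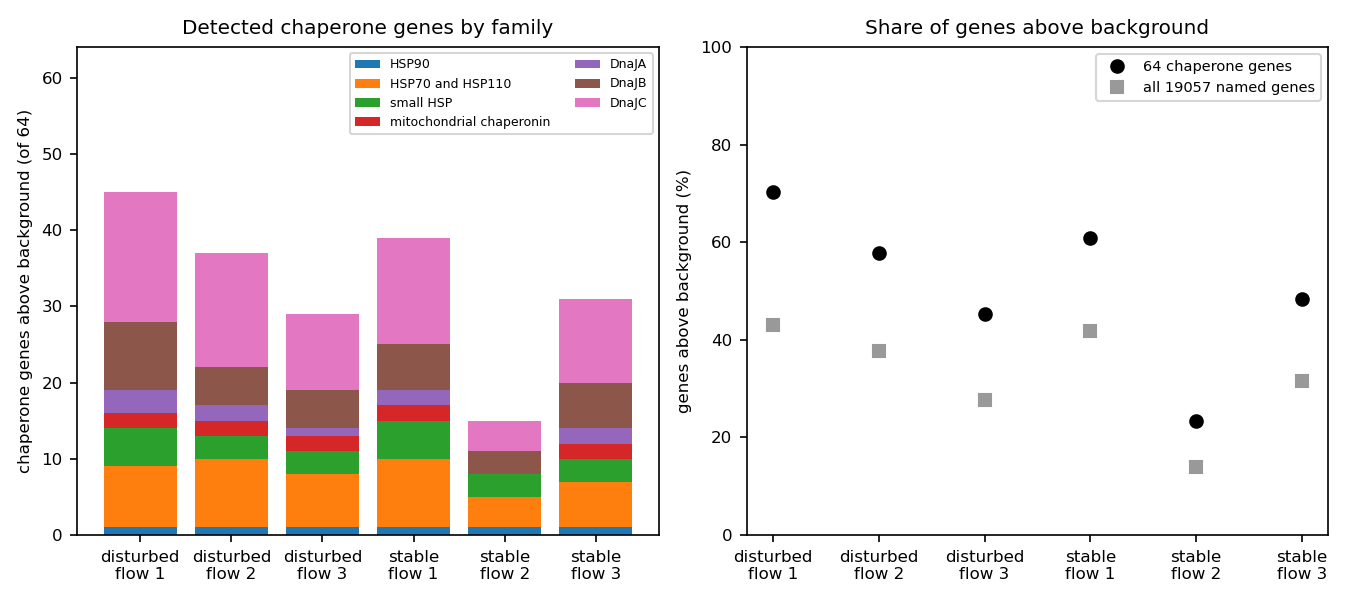
Left, chaperone genes above background (detection p-value under 0.05 on the brightest probe) on each array, stacked by family. Right, the share of the 64 chaperone genes and of all 19057 named genes above background on the same arrays, in percent. The counts run from 15 on stable flow replicate 2 to 45 on disturbed flow replicate 1, and the chaperone share lies above that of all genes on each array.

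The 11 genes above background on all 6 arrays were Hsp90aa1, Hspa2, Hspa8, Hspb1, Hspb8, Dnajb1, Dnajb9, Dnajc3, Dnajc6, Dnajc7 and Dnajc10. They include the constitutive cytosolic HSP70 (Hspa8), its stress-induced J protein (Dnajb1), a pair of small heat shock proteins and 3 J proteins of the endoplasmic reticulum (Dnajb9, Dnajc3 and Dnajc10). On stable flow replicate 2, where 14.0% of all named genes were above background, the counts by brightest probe were 1 of 1 for HSP90, 4 of 13 for the HSP70 and HSP110 family, 3 of 8 for the small heat shock genes, 0 of 2 for the mitochondrial chaperonin, 0 of 3 for DnaJA, 3 of 12 for DnaJB and 4 of 25 for DnaJC. The brightest probes of Hspd1 and Dnaja2 had detection p-values of 0.0502 and 0.0513 on that array, just past the threshold, and another Dnaja2 probe was above background there (0.0299). At the other end, 13 genes were above background on 0 arrays by their brightest probe: Hspa12a, Hspa13, Hspa1l, Hspa4l, Hspb7, Dnajb7, Dnajb8, Dnajb14, Dnajc5g, Dnajc9, Dnajc12, Dnajc17 and Dnajc25. A dimmer probe of Hspa4l was above background on 1 array, and those of the other 12 on 0. Among these, Hspa1l, Dnajb8 and Dnajc5g are known as testis genes and Hspb7 as a heart and skeletal muscle gene. A gene not above background is not shown to be absent. Intensity depends on each probe, so levels are compared below between arrays only, never between genes.

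A total of 56 probes for 35 chaperone genes passed the filter on dim probes (detection p-value under 0.05 on at least 3 of 6 arrays) and were compared between disturbed and stable flow, which asks whether chaperone transcripts respond to flow. Of these 56 probes, 0 passed limma's adjusted p threshold of 0.05, and over all 12546 tested probes 0 did (0%). The smallest adjusted p among the chaperones was 0.890. Only 2 chaperone probes (3.57%) had an unadjusted p under 0.05, against 338 (2.69%) of all tested probes, and with 1 brightest probe a gene 0 of 35 chaperone genes, against 2.97% of all measured genes. Each gene is given below by its brightest tested probe as log2 intensity after background correction and quantile normalization, and each difference is disturbed minus stable flow with limma's standard error (SE). Over the 35 genes 22 differences were above 0 and 13 below, with a median of 0.17, beside 57.8% above 0 and a median of 0.11 over all 6980 measured genes. None of the 35 had groups that did not overlap (0 of 35), against 10.2% of all measured genes (5.99% with disturbed flow higher and 4.17% with disturbed flow lower). All 35 of the 95% intervals spanned 0, and reached a median of 1.23 to either side of the estimate, so that most of them took in a 2-fold difference (1 log2 unit) in at least 1 direction.

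**Figure D2:**
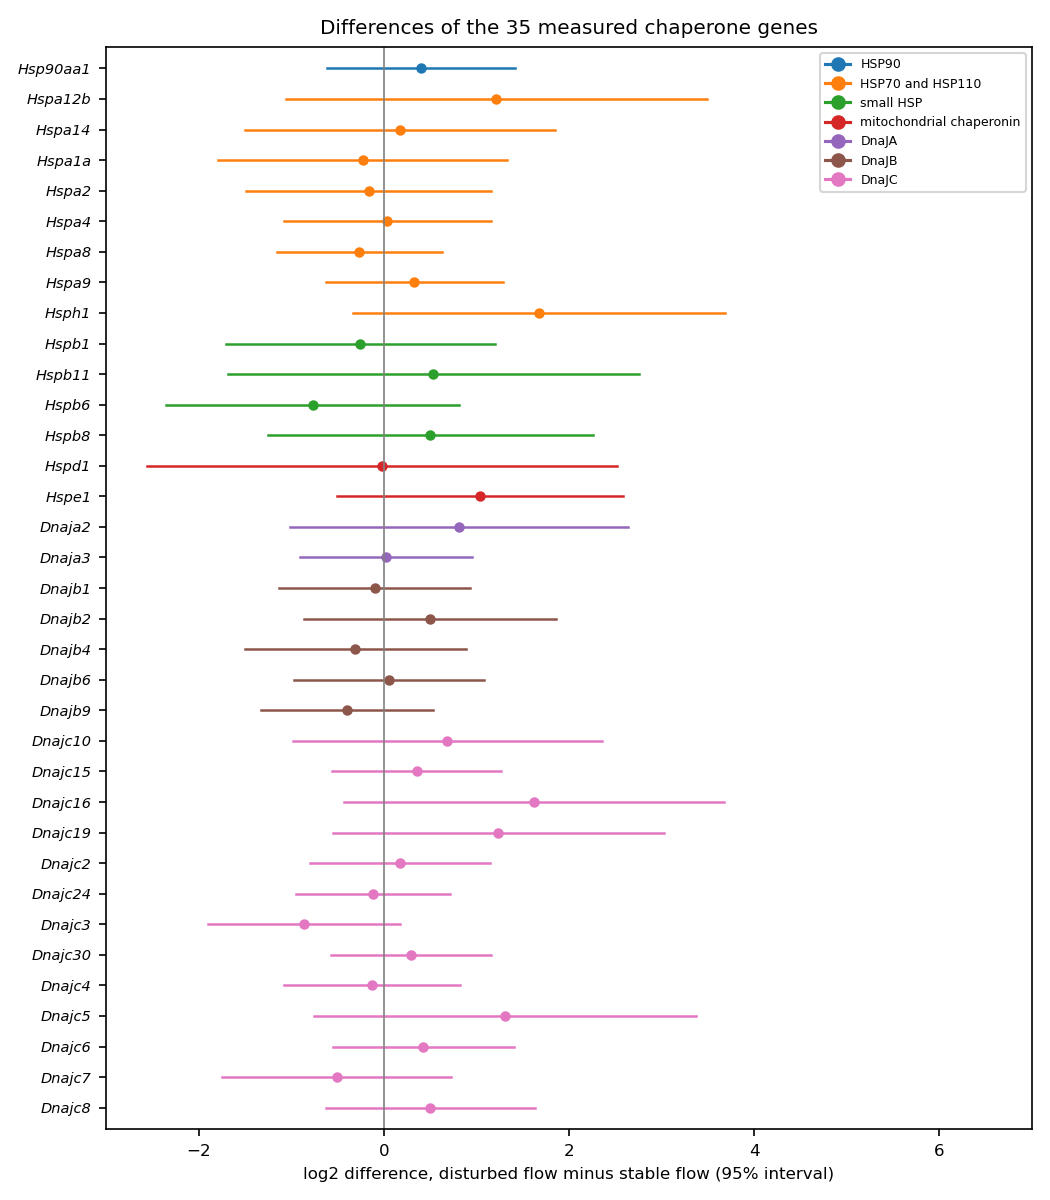
Log2 difference (disturbed flow minus stable flow) of the 35 measured chaperone genes, by family, 1 brightest tested probe a gene. Points are limma estimates from 3 against 3 arrays and lines their unadjusted 95% intervals, all of which cross 0.

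For most chaperone genes the difference between groups did not exceed the SD within at least 1 group. The median range of a chaperone gene over the 6 arrays was 1.75, beside 1.65 over all measured genes. The difference between groups was larger than the SD within both groups for 4 of the 35 genes (11.4%), against 19.2% of all measured genes. For 10 genes (28.6%, against 26.3% of all) the highest array lay more than 1 log2 unit above the next. Of these 10, Hspa12b, Hspe1, Dnajc5 and Dnajc16 had that array at disturbed flow replicate 2, Hspb8 and Dnaja2 at disturbed flow replicate 3, Hspb11 and Dnajc10 at disturbed flow replicate 1, and Hspa1a and Hspb6 at stable flow replicate 2. Disturbed flow arrays so held 80% of these 10 gaps, against 50.3% of the 1838 such gaps over all measured genes. That split rests on 10 genes and was not tested. The lowest value fell on stable flow replicate 2 for 17 of 35 genes (48.6%), close to the 49.1% of all measured genes.

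**Figure D3:**
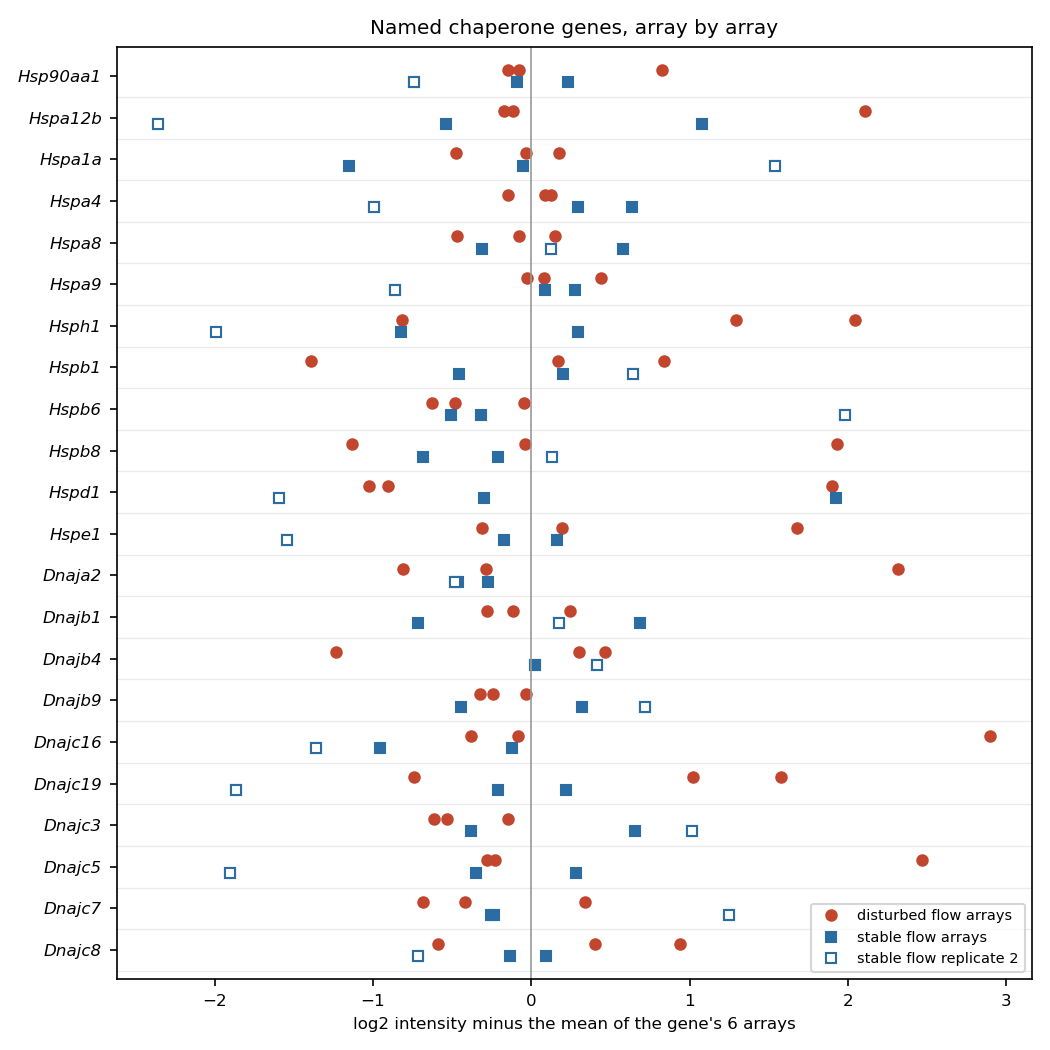
Log2 intensity of the 22 named chaperone genes on each array, after subtracting the mean of the gene's 6 arrays. Red circles are disturbed flow arrays, blue squares stable flow arrays, and the open square is stable flow replicate 2. Single arrays stand apart, such as 1 disturbed flow array for Dnajc16, Dnajc5 and Dnaja2, and the groups overlap in every row.

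Hsp90aa1, the inducible cytosolic HSP90 gene, had log2 intensities of 7.81, 6.84 and 6.91 on the disturbed flow arrays and 7.22, 6.24 and 6.89 on the stable flow arrays. The difference was 0.40 (SE 0.43, limma adjusted p = 0.890). The groups overlapped, with the highest value on disturbed flow replicate 1 and the lowest on stable flow replicate 2. Its second tested probe gave 0.40 as well, the closest match between probes of 1 gene in these families, and leaving out single arrays gave 0.09 to 0.66.

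Among HSP70 genes, the constitutive Hspa8, which also uncoats clathrin vesicles, had 9.46, 9.07 and 9.69 on the disturbed flow arrays and 9.23, 9.66 and 10.12 on the stable flow arrays. The difference was -0.26 (SE 0.38, limma adjusted p = 0.903), and its other probes gave 0.29 and 0.86. With arrays scaled to 1 common 75th percentile in place of quantile normalization it was 0.62. The 9.66 on stable flow replicate 2 came from a deposited signal of 184, the lowest of all arrays. The groups overlapped, with the highest value on stable flow replicate 3 and the lowest on disturbed flow replicate 2, and the sign depended on the probe and the scaling. The stress-induced Hspa1a had 5.14, 5.58 and 5.79 on the disturbed flow arrays and 5.56, 7.16 and 4.47 on the stable flow arrays, a difference of -0.23 (SE 0.67). Here both the highest and the lowest value were on stable flow arrays, and the highest, on replicate 2, came from a deposited signal of 101 with a detection p-value of 0.00962. Without that array the difference was 0.54, and with array weights 0.41.

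Hspa1b, the neighbouring copy of Hspa1a, was above background on 1 disturbed and 1 stable flow array by its brightest probe and on a further disturbed flow array by its other probe, and was not tested. The brightest probe had deposited signals of 90.2, 88.3 and 79.8 on the disturbed flow arrays and 184, 92.6 and 99.4 on the stable flow arrays. The highest of these was on stable flow replicate 1, which also had the highest deposited Hspa1a signal (182). The bases before the starts of both genes were 98.8% identical (247 of 250), but these lie outside the transcripts. Transcripts of near-identical copies can bind the same probe. Transcript and probe sequences were not compared here, so whether this pair shares signal was not tested and its values are uncertain.

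Hspa9, the mitochondrial HSP70 of the import motor, had 5.96, 6.07 and 6.43 on the disturbed flow arrays and 6.26, 5.13 and 6.07 on the stable flow arrays. The difference was 0.33 (SE 0.41), and it was -0.02 without stable flow replicate 2 and -0.05 under 75th percentile scaling. Its second probe, at 6.08, 6.49 and 6.17 on the disturbed flow arrays and 6.01, 4.35 and 5.84 on the stable flow arrays, was 1 of 3 chaperone probes out of 56 (5.36%) whose groups did not overlap, against 9.68% of all tested probes. Its difference was 0.85 (SE 0.50, limma adjusted p = 0.890). Both probes were lowest on stable flow replicate 2.

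Hspa12b, an atypical HSP70 enriched in endothelium, spanned 4.46 log2 units over the arrays, the widest range of the 35 genes. It had 7.21, 9.44 and 7.16 on the disturbed flow arrays and 8.40, 4.97 and 6.79 on the stable flow arrays. Disturbed flow replicate 2 was the highest and stable flow replicate 2, where the probe was not above background, the lowest. This made a difference of 1.21 (SE 0.97, limma adjusted p = 0.890), and it was 0.34 without stable flow replicate 2 and 2.09 without stable flow replicate 1. The testis-enriched Hspa2 (-0.16, SE 0.56) and the ribosome-associated Hspa14 (0.17, SE 0.71) had smaller differences with overlapping groups.

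The HSP110 branch, whose members are nucleotide exchange factors, had 2 measured genes. Hsph1, which resets HSP70 and is an HSF1 target, had 7.86, 5.75 and 8.61 on the disturbed flow arrays and 6.86, 4.57 and 5.75 on the stable flow arrays. Its difference of 1.68 (SE 0.86, limma adjusted p = 0.890) was the largest of the 35 genes. Disturbed flow replicates 1 and 3 lay above all stable flow arrays, while disturbed flow replicate 2 lay among them. Leaving out single arrays gave 1.11 to 2.45. The related Hspa4 had 5.40, 5.16 and 5.43 on the disturbed flow arrays and 5.60, 4.32 and 5.94 on the stable flow arrays, a difference of 0.04 (SE 0.48) whose sign turned under 75th percentile scaling (-0.45), cyclic loess (-0.30) and array weights (-0.40). The difference between Hsph1 and Hspa4 was not tested.

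Of the small heat shock genes, Hspb8, which works with the autophagy adaptor Bag3, had 8.18, 9.27 and 11.24 on the disturbed flow arrays and 9.10, 9.44 and 8.63 on the stable flow arrays. The disturbed flow arrays held both the lowest and the highest value, and the difference of 0.50 (SE 0.75) was -0.32 without disturbed flow replicate 3. The 9.44 on stable flow replicate 2 came from a deposited signal of 166, the lowest of all arrays. Hspb1, the HSP27 gene, which binds actin, had 6.30, 8.53 and 7.86 on the disturbed flow arrays and 7.23, 8.33 and 7.89 on the stable flow arrays, a difference of -0.26 (SE 0.62). Its sign turned to 0.37 without disturbed flow replicate 1 and to 0.28 under 75th percentile scaling. The 8.33 on stable flow replicate 2 came from a deposited signal of 113, again the lowest of all arrays. Hspb6, the smooth muscle HSP20 gene, had 5.05, 4.47 and 4.62 on the disturbed flow arrays and 4.78, 7.08 and 4.59 on the stable flow arrays. Its difference of -0.77 (SE 0.68) changed sign to 0.03 without stable flow replicate 2, the array on which it stood apart. The deposited signal there was 101, against 131 on stable flow replicate 1, where the normalized value was 4.78. Hspb11, an intraflagellar transport subunit despite its name, was at 8.23 on disturbed flow replicate 1 and at 4.34 to 5.49 on the other arrays. The muscle genes Hspb2 and Hspb3 were above background on 1 disturbed flow array each (detection p-values 0.0171 and 0.0427), and Hspb9 on 1 stable flow array (0.0299).

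The mitochondrial chaperonin is made of Hspd1 (HSP60), the folding barrel, and Hspe1 (HSP10), its lid. Hspd1 had 9.37, 6.44 and 6.57 on the disturbed flow arrays and 9.39, 5.87 and 7.17 on the stable flow arrays, a difference of -0.02 (SE 1.08). Hspe1 had 6.83, 8.32 and 6.33 on the disturbed flow arrays and 6.47, 5.10 and 6.81 on the stable flow arrays, a difference of 1.04 (SE 0.66, limma adjusted p = 0.890). On these probes Hspd1 was high on replicate 1 of both groups, and Hspe1 on disturbed flow replicate 2, without which its difference was 0.45. The second Hspd1 probe, with 4.86, 7.83 and 4.34 on the disturbed flow arrays and 5.01, 4.40 and 4.71 on the stable flow arrays, was high on disturbed flow replicate 2, as Hspe1 was, and gave 0.97 (SE 0.87).

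Hspd1 and Hspe1 are head-to-head neighbours that share a heat shock element, the inverted repeat of GAA to which HSF1 binds. The table of RefSeq promoters (GRCm38.p6) held 52 of the 64 chaperone genes. The 250 bases before each start were searched on both strands for GAANNTTC and TTCNNGAA, which hold a pair of repeats and may overlap, and for the longer motifs that add NNGAA to the end of the first or NNTTC to the end of the second, which hold 3. At least 1 of the shorter motifs stood before 13 of the 52 chaperone genes (25%), against 14.5% of all genes in the table, and at least 1 of the longer ones before 3 (5.77%), against 0.514%. The 3 were Hspd1, Hspe1 and Dnajb6. The Hspd1 and Hspe1 matches are the same bases read from either gene, so their shared element is counted for both. No match was found for Hsp90aa1, Hspa8 or Dnajb1, which either had none or were not in the table. The stretches below show these letters for some of the genes with a match, among them the near-identical Hspa1 pair. They run 5′ to 3′ on the strand of the gene, with every base of a motif in capitals.
Hspe1: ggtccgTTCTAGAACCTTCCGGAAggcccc
Dnajb6: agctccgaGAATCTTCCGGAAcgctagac
Hspa1a: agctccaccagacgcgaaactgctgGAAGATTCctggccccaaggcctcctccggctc
Hspa1b: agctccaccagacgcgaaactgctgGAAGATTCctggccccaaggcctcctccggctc
Hsph1: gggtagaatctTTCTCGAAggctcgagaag
Hspb1: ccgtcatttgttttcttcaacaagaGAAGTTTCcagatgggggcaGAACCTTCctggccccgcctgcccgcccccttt

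The Hspe1 stretch lies on chr1:55088053-55088082 (plus strand), between the Hspe1 start and a start of Hspd1 on the other strand, 216 bases apart. The others lie on chr5:29735844-29735872 (Dnajb6, plus), chr17:34972228-34972285 (Hspa1a, minus), chr17:34959310-34959367 (Hspa1b, minus), chr5:149636351-149636380 (Hsph1, minus) and chr5:135887777-135887854 (Hspb1, plus). The Hspa1a and Hspa1b stretches were identical over all 58 bases. Of the 13 genes with a shorter motif, 9 were measured, 4 with differences above 0 and 5 below (median -0.02, -0.77 to 1.68). Of the 39 matched genes without one, 20 were measured, 13 above 0 and 7 below (median 0.26, -0.86 to 1.62). A motif match is a run of letters and does not show that HSF1 was bound.

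The textbook HSF1-inducible chaperones, a list of 10 chosen with earlier results of these data known, had 8 measured genes, of which 0 passed, 3 had differences above 0 and 5 below. Their median was -0.06, beside 0.11 over all measured genes. It turned to 0.51 under 75th percentile scaling, to 0.11 under cyclic loess and to 0.21 with array weights, so no direction is given for the list. Dnajb1, the inducible J protein, had 8.31, 7.79 and 7.95 on the disturbed flow arrays and 8.75, 8.24 and 7.35 on the stable flow arrays. The disturbed flow values lay within the range of the stable flow values, and the difference was -0.10 (SE 0.44), with 0.57 under the 75th percentile scaling. The 8.24 on stable flow replicate 2 came from a deposited signal of 112, the lowest of all arrays. Dnaja1, the other J protein of the list, was above background on 1 disturbed and 1 stable flow array and was not tested.

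Among the cytosolic J proteins, Dnaja2 had 5.51, 6.03 and 8.63 on the disturbed flow arrays and 6.04, 5.84 and 5.86 on the stable flow arrays, a difference of 0.81 (SE 0.78). Without disturbed flow replicate 3, the highest array, it was -0.15, and the second probe gave -0.13 with all arrays between 5.81 and 6.42. Dnajb4, found in heart and muscle, had 6.60, 6.43 and 4.90 on the disturbed flow arrays and 6.15, 6.55 and 6.16 on the stable flow arrays. Its difference of -0.31 (SE 0.51) turned to 0.24 without disturbed flow replicate 3 and to 0.03 with array weights. Dnajc7, which binds both HSP70 and HSP90, had 6.24, 5.97 and 6.99 on the disturbed flow arrays and 6.42, 7.91 and 6.40 on the stable flow arrays. It stood highest on stable flow replicate 2, and its difference of -0.51 (SE 0.53) was -0.01 without that array. The deposited signal behind that value, 107, was the lowest of all arrays, so the peak appeared only after normalization.

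Dnajb6, which keeps aggregation-prone proteins soluble, gave values that depended on the probe. Its brightest tested probe gave 0.05 (SE 0.44). Another had 7.27, 7.40 and 4.89 on the disturbed flow arrays and 4.85, 4.41 and 4.66 on the stable flow arrays, a difference of 1.88 (SE 0.68, unadjusted p = 0.0267, limma adjusted p = 0.890) with groups that did not overlap, though disturbed flow replicate 3 was 0.05 above the highest stable flow array. The third was at 10.01 on stable flow replicate 3 and at 4.73 to 5.45 on the other 5 arrays, which gave -1.81 (SE 1.26). Dnajb6 was named here after its values were seen.

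The J proteins of the endoplasmic reticulum, which serve the lumenal HSP70, held the lowest difference of the families. Dnajc3, which is induced when proteins unfold in that compartment, had 6.83, 6.75 and 7.22 on the disturbed flow arrays and 8.02, 8.38 and 6.99 on the stable flow arrays. Stable flow replicates 1 and 2 lay above every disturbed flow array, and replicate 3 among them. The replicate 2 value came from a deposited signal of 114, the lowest of all arrays. The difference was -0.86 (SE 0.44, limma adjusted p = 0.890), and leaving out single arrays gave -1.23 to -0.58. Its second probe, with 5.49, 5.24 and 4.48 on the disturbed flow arrays and 5.71, 6.92 and 5.55 on the stable flow arrays, gave -0.99 (SE 0.49), with groups that did not overlap. Dnajb9, of the same stress response, had 6.85, 7.06 and 6.77 on the disturbed flow arrays and 7.41, 7.81 and 6.65 on the stable flow arrays. Its 7.81 came from a deposited signal of 106, again the lowest of all arrays. The groups overlapped through stable flow replicate 3, and both probes were below 0 (-0.40, SE 0.40, and -0.47, SE 0.53), although 75th percentile scaling gave 0.06 for the first. Dnajc10, a disulfide reductase of the same compartment, had the opposite sign on both probes (0.69, SE 0.71, and 0.38, SE 0.55).

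At the mitochondrial import motor, Dnajc19 had 7.74, 7.19 and 5.43 on the disturbed flow arrays and 6.39, 4.30 and 5.96 on the stable flow arrays, a difference of 1.24 (SE 0.76, limma adjusted p = 0.890). Its 5 tested probes ran from -0.16 to 1.73, and the last of these was the second chaperone probe with an unadjusted p under 0.05 (0.0349). On that probe, disturbed flow replicates 1 and 2 (7.35 and 6.88) stood apart from the other 4 arrays (4.28 to 4.85). Dnajc5, the cysteine string protein of secretory vesicles, had 5.94, 8.64 and 5.89 on the disturbed flow arrays and 6.45, 4.27 and 5.82 on the stable flow arrays. Its difference of 1.31 (SE 0.88) was 0.41 without disturbed flow replicate 2, and its second probe gave 0.13 (SE 0.48) with no such peak.

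Dnajc16, a membrane-anchored J protein, had 5.33, 8.62 and 5.64 on the disturbed flow arrays and 5.60, 4.36 and 4.76 on the stable flow arrays. It showed the widest gap of a single array, 2.98 above the next, and its difference of 1.62 (SE 0.87, limma adjusted p = 0.890) was 0.59 without disturbed flow replicate 2. Dnajc8, a splicing-associated J protein, had 6.58, 5.58 and 7.11 on the disturbed flow arrays and 6.04, 5.46 and 6.27 on the stable flow arrays. Its groups overlapped, with 0.50 (SE 0.48) on this probe and -0.21 on the other. Dnajc30 was above background on 3 disturbed and 0 stable flow arrays. Its mean was 4.99 under disturbed flow, against a measured 4.70 under stable flow. The disturbed flow mean lay below the average of each stable flow array's own lowest detected signal, so no fold is given. Dnajc6, the auxilin gene of clathrin uncoating, was above background on all arrays and had 0.43 (SE 0.42).

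**Figure D4:**
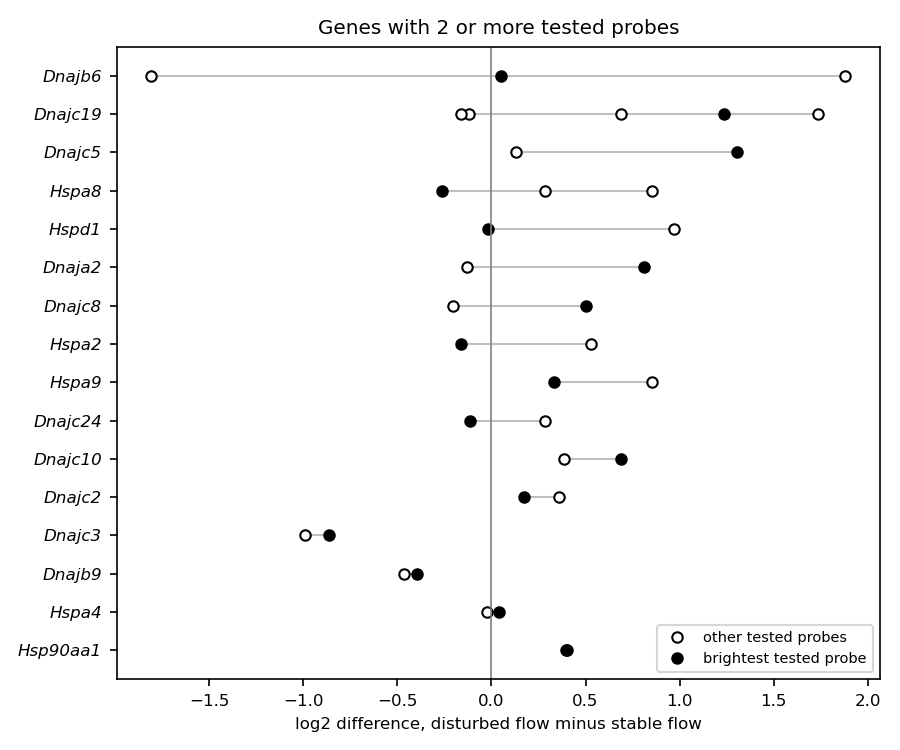
Log2 difference (disturbed flow minus stable flow) of each tested probe for the 16 chaperone genes with at least 2. Filled circles are the brightest probe and open circles the others. Probes of Dnajb6 run from -1.81 to 1.88, while those of Hsp90aa1, Dnajb9 and Dnajc3 lie close together.

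Of the 16 genes with at least 2 tested probes, 7 had the same sign on all of them and 9 did not. The median distance between a gene's lowest and highest difference was 0.61, beside a median SE of 0.53 for the 35 genes. Family medians were 0.11 for 8 measured HSP70 and HSP110 genes, 0.12 for 4 small heat shock genes, 0.51 for the mitochondrial chaperonin pair, 0.41 for 2 DnaJA, -0.10 for 5 DnaJB and 0.35 for 13 DnaJC genes. Those of the small heat shock, chaperonin and DnaJB genes changed sign when single arrays were left out (-0.37 to 0.33, -0.15 to 1.10 and -0.37 to 0.24). Those of the HSP70, DnaJA and DnaJC genes did not, and all of them turned under the matrix columns.

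Cofactors and other folding machines, a list of 52 genes, had 48 on the array and 35 measured. Of these, 0 passed, 22 had differences above 0 and 13 below, with a median of 0.37, and of 0.03 under 75th percentile scaling. The genes with the smallest p-values in each direction were Pfdn2 and Cct8 above 0 and Sugt1 and Cct7 below. Pfdn2, a prefoldin subunit, had 10.08, 9.13 and 8.64 on the disturbed flow arrays and 8.58, 4.49 and 7.32 on the stable flow arrays (2.49, SE 1.00, limma adjusted p = 0.890). Its groups did not overlap, though disturbed flow replicate 3 (8.64) lay only just above stable flow replicate 1 (8.58). Without stable flow replicate 2, the lowest array, the difference was 1.33. Cct8, a subunit of the cytosolic chaperonin, gave 1.10 (SE 0.48), and its groups did not overlap either. Of all measured genes, 10.2% had groups that did not overlap. Cct7, another subunit, gave -0.41 (SE 0.34). Sugt1, an HSP90 cofactor, was at 10.35 on stable flow replicate 2 and at 5.69 to 6.91 elsewhere, so its -1.43 (SE 1.03) was -0.16 without that array.

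Markers of other cells were present beside these values. Of 8 endothelial markers 7 were measured, with summed linear intensities of 2120 to 2330 on the disturbed flow arrays and 1680 to 2580 on the stable flow arrays, and Kdr was above background on 0 arrays. Of 6 smooth muscle markers 3 were measured (254 to 393 under disturbed and 343 to 398 under stable flow), with Tagln above background on 0 arrays. Of 5 fibroblast markers 3 were measured (93.6 to 120 under disturbed and 115 to 229 under stable flow). Of 4 macrophage markers on the array, 1 to 4 were above background on the disturbed flow arrays and 0 to 1 on the stable flow arrays. The 1 measured, Lyz2, had 257 on disturbed flow replicate 1 and 20.4 to 60.3 on the other 5 arrays. Hspb11 and Dnajc10 also stood more than 1 log2 unit apart on disturbed flow replicate 1, as did 288 of all 6980 measured genes. Whether macrophage RNA had a part in those values was not tested. Of 3 adipocyte markers on the array 1 was measured, with Adipoq and Plin1 above background on 0 arrays. The measured one, Fabp4, had 82.3, 67.2 and 239 on the disturbed flow arrays and 92.6, 230 and 40.1 on the stable flow arrays. Without Adipoq and Plin1 above background, Fabp4 alone does not show that adipocyte RNA was present. The high Fabp4 arrays, disturbed flow replicate 3 and stable flow replicate 2, are those on which Hspb8 and Dnaja2, and Hspa1a and Hspb6, stood apart. Of all 6980 measured genes, 294 stood more than 1 log2 unit above the next array on disturbed flow replicate 3, and 472 on stable flow replicate 2. The deposited signals of Hspa1a and Hspb6 on stable flow replicate 2 were 101 each, against 182 and 131 on stable flow replicate 1. Whether the values are linked was not tested. Of 5 skeletal muscle markers 0 were measured, with Ckm, Acta1, Tnnt3 and Mb above background on 0 arrays. Fewer cells of a type and less RNA per cell cannot be told apart in such bulk RNA.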

How the data were processed

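The deposited table holds 1 signal intensity per probe and array, not normalized per the file headers, and a detection p-value, per the file headers. The submitters' processing notes name GenomeStudio 2011.1 without settings. A further deposited intensity table, the series matrix, is on a linear scale (minimum -17.0, maximum 9720 in each column), made by an unstated step. Its scale and centring were read from the values. Its direction between groups remains unknown.

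Signals were background-corrected from the detection p-values, quantile-normalized and logged by neqc of limma 3.58.1 (offset 16, R 4.3.3). Deposited intensities were thereby turned into log2 values. Of 45281 probes, 12546 were above background (detection p under 0.05) on 3 or more of 6 arrays. These were tested, two-sided, by lmFit and eBayes, and p-values were adjusted over all of them after Benjamini and Hochberg. Gene names came from the platform annotation: 34885 probes had 1 symbol, 18 several and 10378 none. The probe with the highest mean stood for its gene. Named genes are a fixed set, the 3 further chaperones with the smallest p in each direction and, of the cofactor list, 2 in each direction. Others are named as examples of counts. Members, lists and rules were chosen with earlier results of these data known. The fit was also run on simulated data with planted differences. The share recovered is not given here, so that run does not tell how large a difference could be found. Arrays correlated at 0.594 to 0.863 over probes. Same-numbered arrays of the groups had deviations correlating at -0.04, -0.07 and -0.09, which gave no sign of a pairing. With so few arrays these values cannot exclude one, and the labels do not tell. The number of arrays limits the precision. Alternatives tried were other scalings, background correction, filters, array weights, a replicate block, the matrix values, averaged probes and leaving out single arrays.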

Additional observations from a re-analysis of the deposited data

How the results depend on the processing

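The number of chaperone probes past limma's threshold was 0, and that of all probes 0, in every alternative run, with 190 (scaling to a common 75th percentile) to 2097 (no filter) of all probes at an unadjusted p under 0.05. The replicate block gave 0 calls and changed no difference (329 probes at an unadjusted p under 0.05). Whether the numbers pair the arrays is not known. The chaperone median of 0.17 was lowest (0.034) when stable flow replicate 2 was left out and highest (0.30) when stable flow replicate 1 was, and it was 0.33 with a detection p under 0.01 and 0.03 with no filter. Genes above background on at least 3 arrays numbered 35, 29 at a detection p under 0.01 and 37 with any probe. The 75th percentile scaling put the median of all measured genes at -0.06, beside 0.11 as reported, and the share above 0 at 44.1%, beside 57.8%.

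Signs turned as follows. With the 75th percentile scaling they were 0.62 for Hspa8, 0.57 for Dnajb1, 0.28 for Hspb1, 0.011 for Hspd1, -0.047 for Hspa9, -0.45 for Hspa4 and 0.06 for Dnajb9. With cyclic loess they were 0.13 for Dnajb1, -0.035 for Hspa9, 0.10 for Hspa1a and -0.30 for Hspa4. With array weights, lowest for stable flow replicate 2 (0.283), they were 0.15 for Dnajb1, 0.031 for Dnajb4, 0.41 for Hspa1a and -0.40 for Hspa4. With averaged probes they were 0.29 for Hspa8 and 0.47 for Hspd1. Without background correction 0 of 26 signs turned.

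Leaving out single arrays gave -0.32 to 1.24 for Hspb8, -0.47 to 0.24 for Dnajb1, -0.71 to 0.37 for Hspb1, -0.97 to 0.98 for Hspd1, -0.15 to 1.39 for Dnaja2, -0.59 to 0.24 for Dnajb4, -0.016 to 0.51 for Hspa9, -0.85 to 0.54 for Hspa1a, -0.48 to 0.38 for Hspa4 and -1.22 to 0.034 for Hspb6. The other 16 of 26 named genes kept their sign. The causes were not tested.

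The matrix columns as named turned all 26 signs, by their construction from arrays of the other label. They gave 0.26 for Hspa8, -0.50 for Hspb8, 0.10 for Dnajb1, 0.21 for Hspb1, 0.027 for Hspd1, -1.03 for Hspa12b, -0.35 for Hsp90aa1, -0.87 for Hspe1, -1.41 for Hsph1, -0.73 for Dnaja2, -1.14 for Dnajc5, 0.21 for Dnajb4, -0.25 for Hspa9, 0.21 for Hspa1a, -0.062 for Hspa4, 0.60 for Hspb6, -1.33 for Dnajc16, -1.05 for Dnajc19, -0.42 for Dnajc8, 0.78 for Dnajc3, 0.35 for Dnajb9, 0.44 for Dnajc7, -2.20 for Pfdn2, -0.87 for Cct8, 1.31 for Sugt1 and 0.38 for Cct7, with a chaperone median of -0.17.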
